A study of Mus musculus with 6 samples.

Results

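Wide shared KAP1 domains are broad autosomal KAP1 peaks of the mouse ESC line JB1 at which KAP1 was also found, at least in part, in the line BJ1. They were chosen as the autosomal KAP1 peaks of JB1 of at least 3000 bp that share at least 1 bp with a KAP1 peak of BJ1, whether or not ZFP57 was present. Of the 36174 autosomal KAP1 peaks of JB1, 1132 were at least 3000 bp wide, and 1128 of these met the rule. The 4 wide peaks without KAP1 in BJ1 are therefore the whole difference made by the overlap, which was met by 86.2% of all autosomal JB1 peaks. The width in JB1 and the presence in BJ1 chose the domains and are given as descriptions.

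JB1 and BJ1 are male hybrid lines of embryonic stem cells. JB1 carries a maternal JF1 and a paternal B6 genome, BJ1 a maternal B6 and a paternal JF1 genome, and both were grown without feeder cells in medium with serum and LIF. Cross-linked chromatin of each line was precipitated with an antibody against ZFP57 and with an antibody against KAP1, giving a single library per line and antibody. The data used here are the 4 peak lists, which give positions in mm9 and no height, score or read number, so that depth is unknown and no difference between lines could be set against replicate error.

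KAP1 (also known as TRIM28) does not read DNA sequence itself. It is brought to chromatin by KRAB zinc-finger proteins, of which ZFP57 is one, and it assembles the SETDB1 methyltransferase and other factors that lay down H3K9me3 and keep DNA methylated. In ESCs this system is known for silencing retroviral repeats, for holding the methylation of imprinting control regions, and for lying over the 3′ ends of zinc-finger genes. ZFP57 itself recognises the hexamer TGCCGC when its CpG is methylated. The paper reports that it also binds the methylated variant GGCCGC, which was not counted here.

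The B6 reference sequence of the domains held TGCCGC at 2510 places, counted on both strands, in 1030 of the 1128 domains (91.3%), with a median of 2 per domain and at most 11. In the central 3000 bp, 80.8% of the domains held it, against 15.9% of all 797445 autosomal stretches of 3000 bp without gaps. These sites were few in kind. Read with 10 bases on each side, they came in 286 different contexts, and the 6 most frequent accounted for 1591 sites (63.4%). They are shown 5′ to 3′ with the hexamer in capitals, because the cover of each by ZFP57 is compared further on:

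site 1: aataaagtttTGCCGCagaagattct
site 2: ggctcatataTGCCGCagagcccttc
site 3: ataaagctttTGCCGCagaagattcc
site 4: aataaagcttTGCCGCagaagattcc
site 5: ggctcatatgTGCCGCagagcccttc
site 6: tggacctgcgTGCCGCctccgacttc

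Examples in mm9, all on the reverse strand, are chr1:5554611-5554636 for site 1, chr1:8779840-8779865 for site 2, chr1:5557417-5557442 for site 3, chr1:28513024-28513049 for site 4, chr1:5738697-5738722 for site 5 and chr1:30003869-30003894 for site 6. Site 1 was found 474 times in 352 domains, site 2 384 times in 379 domains, site 3 285 times in 184 domains, site 4 186 times in 119 domains, site 5 in 137 domains and site 6 in 125 domains. Sites 2, 5 and 6 thus occurred about once per domain that held them, whereas sites 1, 3 and 4 often occurred more than once.

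The domains measured 3000–57900 bp in JB1, with a median of 3300 bp and an interquartile range of 3150–4200 bp. They were 3.12% of the autosomal JB1 KAP1 peaks and held 13.6% of the bases under them (4.41 Mb). Most lay close to the threshold: 261 domains were exactly 3000 bp wide, and 53 were at least 6000 bp. Just inside the threshold, the first domains on chromosome 1 were at 7341451–7344450 (BJ1 width 2850 bp, no ZFP57), 13545001–13548000 (2400 bp, no ZFP57) and 13950751–13953750 (3000 bp, 2 JB1 ZFP57 peaks). Just outside it, the shared peaks of 2850 bp at 6424951–6427800, 7983601–7986450 and 8057551–8060400 had BJ1 widths of 2700, 2250 and 1350 bp and 2, 1 and 1 JB1 ZFP57 peaks. Among these 6 peaks the BJ1 widths on the 2 sides overlapped, and ZFP57 was present on both sides.

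In BJ1, the widest KAP1 peak over a domain had a median width of 3000 bp, an interquartile range of 2550–3450 bp and a range of 900–29100 bp. It was at least 3000 bp wide at 643 domains (57.0%, exact Clopper-Pearson 95% confidence interval 54.1–59.9%), compared with 3.87% of all 31173 shared peaks. All such intervals cover counting error only, and peaks of a library are not independent replicates. The BJ1 peak was narrower than the domain at 786 domains, equal at 232 and wider at 110, with a median ratio of BJ1 to JB1 width of 0.933. At 490 domains (43.4%) the widths differed by at most 1 window of 150 bp. As the width in JB1 was used for the choice and that in BJ1 was not, a smaller width in BJ1 is no comparison of the lines. With the lines exchanged, 896 BJ1 peaks met the rule, and the same number of 643 overlapped a JB1 peak of at least 3000 bp.

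**Figure D1:**
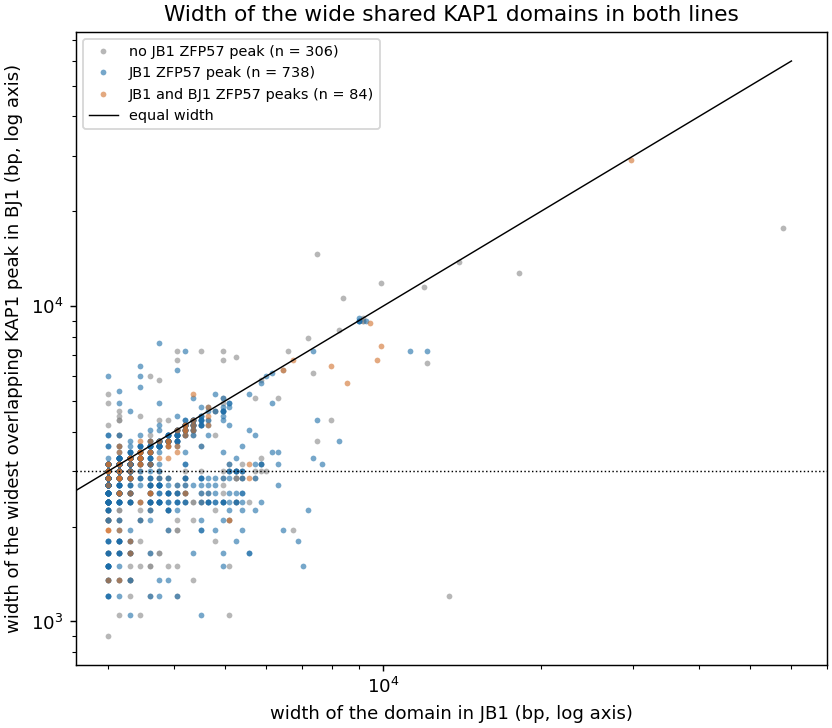
Each point is a domain, plotted by its width in JB1 and by the width of the widest overlapping KAP1 peak in BJ1, both in bp on log axes; the solid line marks equal widths, the dotted line 3000 bp in BJ1, and colours mark ZFP57 peaks. Most points lie on or below the line of equal widths, with *Dux* (29700 and 29100 bp) near the line at the upper end and the domain of 57900 bp far below it (17700 bp).

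A single BJ1 KAP1 peak lay over 755 domains (66.9%), whereas 284 domains were divided between 2 BJ1 peaks, 73 between 3 and 16 between at least 4. Even so, BJ1 peaks covered a median of 95.2% of the bases of a domain. They covered all bases of 345 domains and under 50% of only 12. The widest BJ1 peak measured no more than 50% of the JB1 width at 115 domains.

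The smallest ratio of widths was 0.0899, at chr11:2999851-3013200. This intergenic domain of 13350 bp met a single BJ1 peak of 1200 bp, held no ZFP57 peak, and begins within 1 window of the first sequenced base of the chromosome (3000001 in mm9). The next smallest ratios belonged to domains that BJ1 peaks divided: chr4:3384901-3390000 (5100 bp, 5 BJ1 peaks, the widest 1050 bp), chr8:28575151-28582200 in an intron of *Poteg* (7050 bp, 6 BJ1 peaks, the widest 1500 bp), chr7:33454201-33458700 (4500 bp, 3 BJ1 peaks, the widest 1050 bp) and chr12:20160601-20167500 (6900 bp, 4 BJ1 peaks, the widest 1800 bp). At the other end, the BJ1 peak was 2.04 times as wide as the domain at chr4:146430601-146434350, over the last exon of *Gm13138* (3750 and 7650 bp). It was 2.00 times as wide at chr6:13477501-13480500 (3000 and 6000 bp) and 1.96 times at chr4:147043201-147050700, over *Zfp534* (7500 and 14700 bp). The other wide ratios were at chr12:114436051-114439500 (3450 and 6450 bp) and at chr4:146032801-146036850, where the BJ1 peak of 7200 bp covered only 3.70% of the domain of 4050 bp and lay mainly over its neighbour.

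A ZFP57 peak of JB1 was present in 822 domains (72.9%, 70.2–75.4%), against 15.7% of all shared peaks. A ZFP57 peak of BJ1 was present in 94 domains (8.33%, 6.79–10.1%), against 2.02% of all shared peaks. The ZFP57 list of BJ1 is itself much shorter than that of JB1, with 1252 against 9831 autosomal peaks, and the lists cannot be compared for depth. Peaks of both lines were present in 84 domains, of JB1 alone in 738 and of BJ1 alone in 10, and 296 domains held no ZFP57 peak. Where BJ1 had a ZFP57 peak, JB1 thus had one as well in 89.4% of the domains (84 of 94), compared with 527 of 630 among all shared peaks. The number of JB1 ZFP57 peaks in a domain was 1 at 421 domains, 2 at 324 and at least 3 at 77, with a maximum of 5.

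A wide peak has more room for ZFP57, so the share was followed over the width of all shared peaks. It was 2.81% at 300–600 bp, 17.6% at 750–1350 bp, 45.7% at 1500–2850 bp and 74.9% at 3000–4350 bp, and was lower in the wider domains, with 65.6% at 4500–5850 bp and 58.5% (44.1–71.9%, 31 of 53) at 6000 bp and above. Counted per Mb of KAP1 peak, the JB1 ZFP57 peaks numbered 55.4, 195, 270 and 351 in the first 4 classes, and 195 and 118 in the last 2. The density of JB1 ZFP57 was thus highest in the domains of 3000–4350 bp and lower in the wider ones. The share with BJ1 ZFP57 was 8.69% (6.95–10.7%) at 3000–4350 bp, 3.90% (1.44–8.29%) at 4500–5850 bp and 15.1% (8 of 53, 6.75–27.6%) at 6000 bp and above, so that, unlike that of JB1, it was highest in the widest class, with an interval that overlaps those of both other classes. For BJ1 the densities were low throughout (7.70–32.8 peaks per Mb) and were not highest at this width, with 32.8 per Mb at 750–1350 bp and 27.2 per Mb at 3000–4350 bp.

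**Figure D2:**
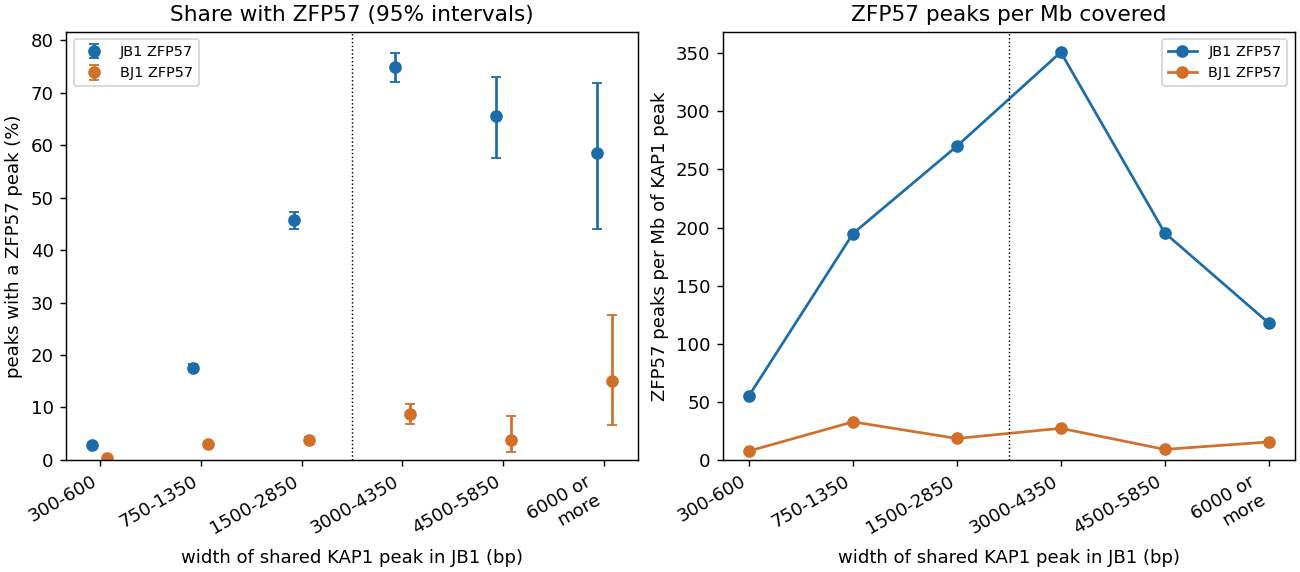
Shared autosomal KAP1 peaks of JB1 are grouped by width in bp, with the share that holds a ZFP57 peak on the left (points with exact 95% intervals) and the number of ZFP57 peaks per Mb on the right, for ZFP57 of JB1 and of BJ1; the classes to the right of the dotted line are the domains. The JB1 values are highest at 3000–4350 bp (74.9% and 351 per Mb) and fall to 58.5% and 118 per Mb in the widest class.

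Within the domains, ZFP57 lay towards the edges. Of the JB1 ZFP57 midpoints, 78.2% (1021 of 1305) were in the outermost parts, which together make up 50% of the length. For BJ1 it was 87.0% (87 of 100). In shared KAP1 peaks of 1500–2850 bp, the corresponding values were 63.5% for JB1 (2041 midpoints) and 57.1% for BJ1 (140 midpoints). The ZFP57 peaks were narrow in comparison with the domains, with a median of 600 bp in both lines. TGCCGC was present in 81.8% of the 1308 JB1 ZFP57 peaks (79.6–83.9%) and in 88.0% of the 100 BJ1 ZFP57 peaks (80.0–93.6%), at widths with a median of 600 bp. Since a longer peak has more room for a hexamer, peaks of at most 600 bp were also taken alone: 77.5% of 813 in JB1 (74.5–80.3%) and 86.2% of 65 in BJ1 (75.3–93.5%) held it. Of the stretches of 600 bp, 32.7% in the domains and 3.64% over all autosomes did. The domains with TGCCGC had a JB1 ZFP57 peak in 77.9% of cases (802 of 1030, 75.2–80.4%), those without it in 20.4% (20 of 98, 12.9–29.7%). A BJ1 ZFP57 peak was present in 92 of the former and 2 of the latter. Since GGCCGC was not counted, peaks and domains without TGCCGC may hold that variant.

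The domains with the most ZFP57 peaks were chr2:174867151-174870750, an intergenic domain of 3600 bp (BJ1 3750 bp) with 4 JB1 and 1 BJ1 peaks, and chr5:138253351-138257400, in an intron of *Zcwpw1* (4050 bp, BJ1 3750 bp), with 5 JB1 peaks and none of BJ1. A further 23 domains had 4 each, 18 of them with ZFP57 of both lines. These measured 3150–12150 bp, with a median of 3600 bp, and 17 were under 6000 bp. The widest 3 of the 23 were the intergenic domain chr2:123339151-123351300 of 12150 bp, with all 4 peaks from JB1, and 2 others on chromosome 2. This pair, chr2:177021001-177030750 (9750 bp) and chr2:177331201-177341100 (9900 bp), each had 3 peaks of JB1 and 1 of BJ1. Their nearest protein-coding starts were those of *Gm14409* and *Gm14406*.

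The sequence of the domains was largely repeated. Over sampled words of 24 bases, a median of 82.6% of the words of a domain occurred at least 10 times in the genome (interquartile range 74.7–88.4%), against a median of 4.65% in autosomal stretches of 3000 bp. At least 50% of the words were repeated in 1069 domains (94.8%) and in 7.99% of the stretches. The domains were also richer in CpG than these stretches, with 2.47 against 0.700 CpG per 100 bases at a median GC content of 46.5 and 41.5%. Shared peaks under 3000 bp had a like GC content (46.7%). Their CpG is not given here, so the CpG of the domains is not set against theirs. The shared peaks of 1500–2850 bp had a median repeated share of 88.9%, which is no lower than in the domains. How reads that match several places were treated is not given in the sources used here, and its part in the width and presence of these peaks was not tested.

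When the domains were aligned with each other, and those with at least 80% identity over at least 2000 bp were joined, 72 domains were alone and the others fell into families. Links were chained, so the members of a family need not all align with each other. No repeat annotation was used, so the families are given by number. Family 1 held 785 domains (69.6%) and family 2 held 187 (16.6%), both spread over all 19 autosomes. Family 3 held 27 domains, family 4 held 17, and 13 further families held 40 domains together. The number of families depends on the aligned length, since an alignment of 1000 bp already joined 1083 domains into a single group, whereas 95% identity over 2000 bp left families of 763, 173 and 20.

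The families differed in width and in JB1 ZFP57. The share with BJ1 ZFP57 was 7.77% in family 1, 9.09% in family 2 and 7.41% in family 3. Family 1 (median JB1 width 3450 bp) had a single BJ1 peak over 60.3% of its domains and a JB1 ZFP57 peak in 73.9% (580 of 785, 70.7–76.9%). Family 2 was uniform, with a median of 3150 bp in JB1 and 3000 bp in BJ1, a single BJ1 peak over 94.7% of its domains, TGCCGC in all 187 and a JB1 ZFP57 peak in 92.0% (172 of 187, 87.1–95.4%). It held 508 JB1 ZFP57 peaks per Mb, against 301 in family 1 and 42.6 in family 3. Family 3 was the widest, with a median of 7500 bp in JB1 and 8400 bp in BJ1, and had a JB1 ZFP57 peak in 10 of its 27 domains (37.0%, 19.4–57.6%). Most of these 10 lay outside the stretch of chromosome 4 described below. In family 4 a JB1 ZFP57 peak was present in 2 of 17 domains (11.8%, 1.46–36.4%). No BJ1 ZFP57 peak was present in the 17, which allows a share of up to 17.6%. The domains outside families had a JB1 ZFP57 peak in 51.4% of cases and a BJ1 ZFP57 peak in 13.9% (10 of 72, 6.87–24.1%).

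**Figure D3:**
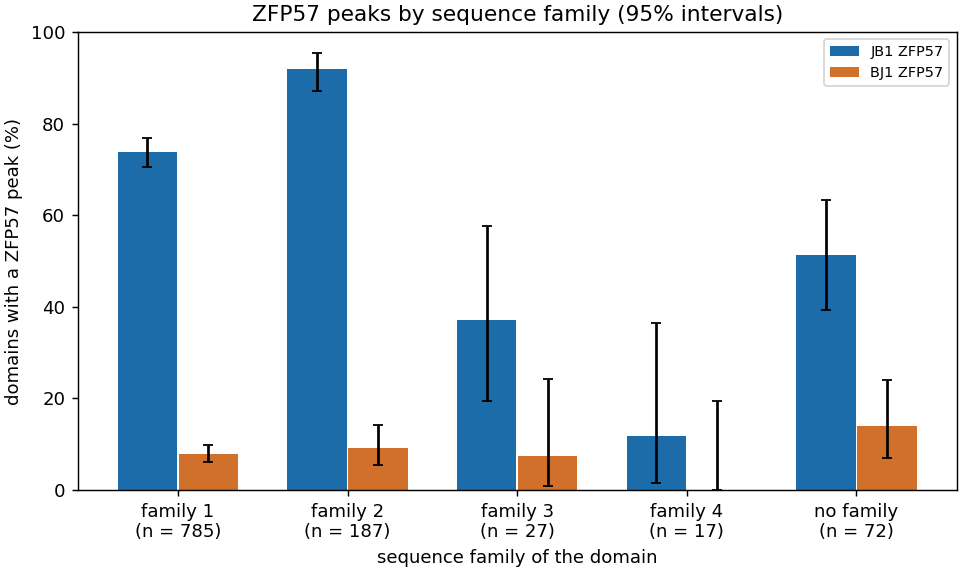
Bars give the share of domains with a ZFP57 peak of JB1 and of BJ1 in families 1 to 4 and in the domains without a family, with exact 95% intervals; the 40 domains of smaller families are not drawn. JB1 ZFP57 is highest in family 2 (92.0%) and lowest in family 4 (11.8%), whereas the BJ1 intervals of all groups overlap.

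ZFP57 peaks were then laid on 1 reference member of each large family, the domain with the most links to others. For family 1 this was chr12:116796001-116804250 (8250 bp) and for family 2 chr7:47386651-47389800 (3150 bp). Of the 906 JB1 ZFP57 peaks in family 1, 552 could be placed. Their midpoints were at 300–900 bp from the start in 179 cases and at 6600–7650 bp in 264, that is, towards the 2 ends of the reference, while 47 were at 1500–1800 bp and 53 at 2100–2850 bp. The reference holds TGCCGC at positions 524, 2741, 6978 and 7516, and 86.1% of the placed midpoints were within 300 bp of one of them, compared with 28.3% of the positions of the reference. The 47 midpoints at 1500–1800 bp were not. This reference is longer than most of its family (median 3450 bp), and the share leaves out the peaks that could not be placed. In family 2, 216 of 308 peaks were placed, with 97 at 150–900 bp and 116 at 1950–3000 bp, and TGCCGC at 407, 2247 and 2861. Here 96.8% of the midpoints and 56.7% of the positions were within 300 bp of TGCCGC. The few BJ1 peaks that could be placed fell into the same end stretches, 15 and 14 of 30 in family 1, and 6 and 2 of 8 in family 2. At 2100–2850 bp of the family 1 reference lay 0 of the 30. Positions within a stretch were not compared between the lines.

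**Figure D4:**
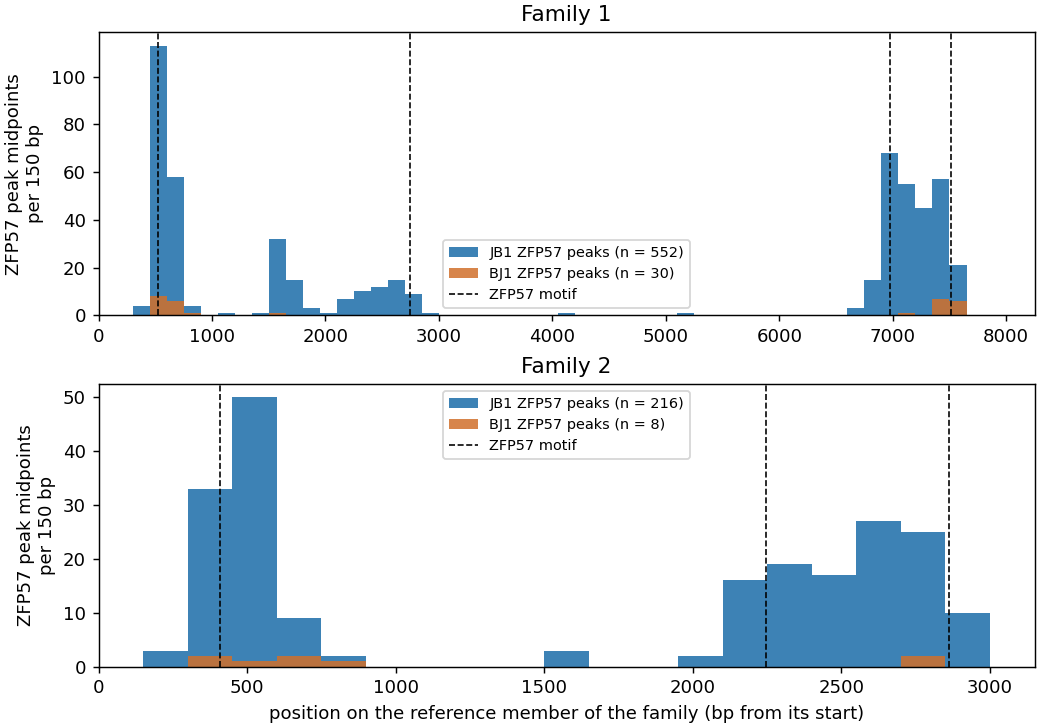
The number of ZFP57 peak midpoints per 150 bp is plotted along the reference member of family 1 (above) and of family 2 (below), in bp from its start, for JB1 and BJ1, with dashed lines at the ZFP57 motif. Midpoints gather near both ends, at 300–900 and 6600–7650 bp in family 1 and at 150–900 and 1950–3000 bp in family 2.

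Over all 2510 sites of the domains, 1274 (50.8%) were under a JB1 ZFP57 peak and 111 (4.42%) under a BJ1 ZFP57 peak, and the 6 printed sites were not equally covered. In the domains, a JB1 ZFP57 peak lay over 59.5% of the copies of site 1 (282 of 474, 54.9–63.9%), 73.3% of site 3 (209 of 285) and 59.7% of site 4 (111 of 186), but over 37.2% of site 2 (143 of 384, 32.4–42.3%), 40.9% of site 5 (56 of 137) and 22.4% of site 6 (28 of 125, 15.4–30.7%). In BJ1, a ZFP57 peak covered 6.54% of site 1 (31 of 474, 4.49–9.15%), 6.67% of site 3 (19 of 285, 4.06–10.2%) and 2.69% of site 4 (5 of 186, 0.878–6.16%). It covered none of the 384 copies of site 2, which allows a share of up to 0.781%, 1 of the 137 copies of site 5 (0.730%, 0.0185–4.00%) and none of the 125 copies of site 6, which allows up to 2.40%. Copies of a site share their sequence, and several sites can lie under the same ZFP57 peak, so these shares are no independent counts.

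The flanks of site 1 were searched over all autosomes with any 6 bases between them, which found 2064 places. All 2064 were under a KAP1 peak of JB1 and 2061 under a KAP1 peak of BJ1, although only 474 of those with TGCCGC were in wide domains. The hexamer was TGCCGC at 1978 of them, TGCCAC at 46 and TGCTGC at 23:

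with the motif: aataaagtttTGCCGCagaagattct
without the motif: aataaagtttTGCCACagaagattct
without the motif: aataaagtttTGCTGCagaagattct

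Example copies in mm9 are chr1:8146550-8146575, chr1:44347923-44347948 and chr2:80128861-80128886 in this order, all on the forward strand. 
A JB1 KAP1 peak covered all of these copies, with or without the motif, and the share under ZFP57 was lower with TGCCAC. A JB1 ZFP57 peak lay over 56.6% of the copies with TGCCGC (1120 of 1978, 54.4–58.8%) and over 23.9% of those with TGCCAC (11 of 46, 12.6–38.8%). TGCTGC was between them, at 39.1% (9 of 23, 19.7–61.5%), and its interval holds both other values. In BJ1, ZFP57 covered 99 of the 1978 copies with TGCCGC (5.01%) and none of the 46 with TGCCAC, which allows up to 6.52%, so that a difference was not detectable there. Inside wide peaks, JB1 ZFP57 covered 59.5% of the TGCCGC copies and 5 of the 20 TGCCAC copies (8.66–49.1%), but 5 of the 8 TGCTGC copies (62.5%, 24.5–91.5%), no fewer than with TGCCGC. In narrower KAP1 peaks it covered 55.7% of 1504 TGCCGC, 6 of 26 TGCCAC (23.1%) and 4 of 15 TGCTGC copies (26.7%, 7.79–55.1%). For TGCCGC the intervals of wide (54.9–63.9%) and narrower peaks (53.2–58.2%) overlapped. For site 2, all 644 places were under a JB1 KAP1 peak, with JB1 ZFP57 over 34.9% of the 593 copies with TGCCGC, 4 of 24 with TGCTGC and 1 of 13 with TGCCAC. The hexamers are those of the B6 reference, and the JF1 allele of each copy was not read.

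Genes lay under a minority of the domains. Of the 1128, 884 were intergenic (78.4%, 75.8–80.7%), 191 were in introns, 24 touched a coding sequence, 3 a UTR without coding sequence and 26 another exon. In all, 244 domains overlapped a gene (21.6%, 19.3–24.2%), against 25.9% of all shared peaks. The median distance to the nearest start of a protein-coding gene was 81.7 kb, compared with 62.2 kb for shared peaks under 3000 bp. A transcription start site lay in 24 domains (2.13%, 1.37–3.15%), close to the 1.8% of all shared peaks. The exception was the widest class, in which 8 of 53 domains of at least 6000 bp (15.1%, 6.75–27.6%) held a start site, where a longer peak also has more room for one. The domains touched 259 genes, of which 195 were protein-coding.

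The second widest domain was chr10:57668551-57698250, over *Dux*, the double homeobox factor that switches on the genes of early embryonic genome activation. It measured 29700 bp in JB1 and 29100 bp in BJ1, and covered *Dux* together with *4933403O03Rik*, *Gm10807* and *Gm4981*. ZFP57 was present in both lines as broad peaks that are the widest in any domain, of 28800 bp in JB1 and 15450 bp in BJ1. Only 2.61% of its sampled words occurred at least 10 times in the genome, and it belonged to no family, unlike most domains. This measure does not see sequence present in fewer than 10 copies. The *Dux* domain held TGCCGC at 2 places. The other member of the early-embryo list was the homeobox gene *Obox2* (chr7:15936601-15939750, 3150 bp in both lines), whose domain covered the start site and held no ZFP57 peak. The genes of the early-embryo list lay under 2 domains (0.177%) and under 10 of all shared peaks (0.0321%).

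Of the germline list, whose genes act in germ cells and are silent in most others, *Mov10l1* alone was under a domain. This gene encodes a helicase needed to make piRNAs, and its domain lay in an intron (chr15:88866601-88870800, 4200 bp in both lines, 2 JB1 ZFP57 peaks). The domain was of family 1, and 95.3% of its sampled words were repeated. The germline genes lay under this 1 domain (0.0887%) and under 8 of all shared peaks (0.0257%). Of the olfactory and vomeronasal receptor genes, *Vmn2r35* alone was touched, by 3 domains (0.266%), a share near the 0.276% of all shared peaks over genes of this list. The 3 domains lay in its introns and measured 4050, 3150 and 3150 bp in JB1 and 6300, 3900 and 4500 bp in BJ1. Only the first of them held ZFP57, with 3 JB1 peaks. All 3 were of family 1, with 93.6–95.5% of their sampled words repeated. No domain lay over a gene of the imprinted, pluripotency, protocadherin, Hox, histone, small RNA or KAP1 machinery lists, and a count of 0 allows up to 0.266% of the domains. The share of all shared peaks over genes of these lists was itself only 0.00321–0.0930%, so that the absence of domains was near the background. The imprinted list, which had the highest of these shares, was under 29 shared peaks, all of them narrower than 3000 bp. The domain nearest to a pluripotency gene among the 20 widest was chr8:44396851-44405850 (9000 bp in both lines, 1 JB1 ZFP57 peak), which lay 4488 bp from the start of *Zfp42*.

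Zinc-finger genes named as such were under only 4 domains (0.355%, 0.0967–0.905%), compared with 0.446% of all shared peaks. When genes were taken by their protein instead, with at least 5 C2H2 fingers in the translated transcript, 11 domains lay over 10 such genes (0.975%, 0.488–1.74%), an interval that holds the 0.616% of all shared peaks. This second list was chosen after the first was seen. The largest of these proteins is that of *Zfp462*, with 33 fingers. Its domain (chr4:55012051-55015200, 3150 bp in JB1 and 3600 bp in BJ1) lay in an intron, had ZFP57 from both JB1 and BJ1, and was nearly free of repeated words (1.96%). Of the other 10 domains, 9 lay in the stretch of chromosome 4 described next, and the remaining one was in *Gm15446* on chromosome 5 (4200 bp, BJ1 3000 bp, no ZFP57).

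On chromosome 4, 26 domains lay between 144430351 and 147121950, a stretch singled out after the values were seen, with 9.66 domains per Mb against 0.471 per Mb over all autosomes. This stretch of 2.69 Mb held 27.1% of the domains of chromosome 4, including the widest domain of all and 9 of the 53 domains of at least 6000 bp. A gene lay under 24 of the 26 domains and a start site under 11. Over all domains these shares were 21.6% and 2.13%, and over all shared peaks 25.9% and 1.8%. Several of the 24 lay over the same annotated gene, *Gm16889*, some of them in introns alone. The share of shared peaks over genes within this stretch was not computed. A JB1 ZFP57 peak was present in 10 of the 26 (38.5%), against 72.9% of all domains. For BJ1 it was 1 of the 26, too few to compare with the 8.33% of all domains. The median width of these 26 domains was 4275 bp in JB1 and 6150 bp in BJ1, and the BJ1 KAP1 peak was the wider one at 12. Family 3 accounted for 10 of these domains, among which only the domain over the last exon of *Gm13138* held a JB1 ZFP57 peak.

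The widest domain, chr4:145677751-145735650, measured 57900 bp in JB1 and met a single BJ1 peak of 17700 bp, which covered 30.6% of it. It reached over the 5′ end of *Gm13247* and the 3′ end of *Gm13251*, both genes of C2H2 zinc-finger proteins (7 and 11 fingers), and over *1700095A21Rik*, *Gm17565*, *Gm13245* and *Gm13241*, with no ZFP57 peak of either line. The third widest, chr4:146545051-146563200 (18150 bp, BJ1 12750 bp), covered the 3′ end and last exon of *Gm13139*, and the fourth, chr4:145414051-145428000 (13950 bp, BJ1 13800 bp), lay over *1700029I01Rik* and *Gm13238*. Last exons, which hold the finger arrays of such genes as a rule, were also covered at *Rex2* (4950 bp, BJ1 6750 bp), *Zfp600* (4050 bp, BJ1 6750 bp), *Gm13138* (3750 bp, BJ1 7650 bp) and *Zfp534* (7500 bp, BJ1 14700 bp). Of the 12 pairs of a domain and a zinc-finger gene in the second list, 6 lay on the last exon, all in this stretch and all in family 3. A single one, *Gm13247*, was over the 5′ end, and 5 were on neither. Of the 6 on a last exon, *Gm13138* had a ZFP57 peak, of JB1. The share of repeated words was low here for domains, from 13.2% at *Gm13139* to 28.1% at the widest, against a median of 82.6% over all domains. It was above the median of 4.65% in autosomal stretches of 3000 bp.

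Outside chromosome 4, family 3 included a group of uniform width. In it, 7 domains were 9000–9300 bp wide in JB1, and their BJ1 peaks were 9000–9150 bp wide. Among them were chr19:61001101-61010100 in an intron of *Grk5*, a kinase of G protein-coupled receptors, chr9:62286901-62295900 in an intron of *Coro2b*, an actin-binding coronin, chr8:125949451-125958600 in an intron of *Gm20388*. The intergenic ones were the domain next to *Zfp42*, chr1:172871401-172880550 (nearest start *Fcrla*), chr1:173410801-173420100 (*Refbp2*) and chr13:67985551-67994700 (*BC048507*). Their widths in the lines differed by at most 2 windows, in contrast to the domains of similar width in family 1, such as chr13:66093451-66102900 (9450 and 8850 bp) and chr2:177331201-177341100 (9900 and 7500 bp). A further domain of family 3 of 9900 bp, chr5:23206201-23216100 near *Srpk2*, was wider in BJ1 (11850 bp).

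The others among the widest were chr4:147109801-147121950 over *Gm13136* and *Gm13148* (12150 bp, BJ1 6600 bp), chr4:146021551-146032800 over *Gm13036* (11250 bp, BJ1 7200 bp, 1 JB1 ZFP57 peak), chr2:177298651-177310650 near *Gm14403* (12000 bp, BJ1 11550 bp, no ZFP57 and no TGCCGC) and the intergenic chr12:20231851-20240850 (9000 bp in both lines, 1 JB1 ZFP57 peak), 1 of 4 domains tied at 9000 bp, so that 21 domains are named by width. Over all 53 domains of at least 6000 bp, 25 were of family 1, 19 of family 3 and none of family 2, and 46 met a BJ1 peak of at least 3000 bp.

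By chromosome, the number of domains per Mb of sequence was highest on chromosomes 13 (0.662, 77 domains) and 4 (0.632, 96 domains), and lowest on chromosome 11 (0.303, 36 domains). The share of shared KAP1 peaks that were domains varied less, from 2.79% on chromosome 11 to 4.64% on chromosome 4, with 3.62% overall. A JB1 ZFP57 peak was present in 88.0% of the 50 domains of chromosome 10 and in 59.4% of the 96 domains of chromosome 4, the highest and lowest shares.

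**Figure D5:**
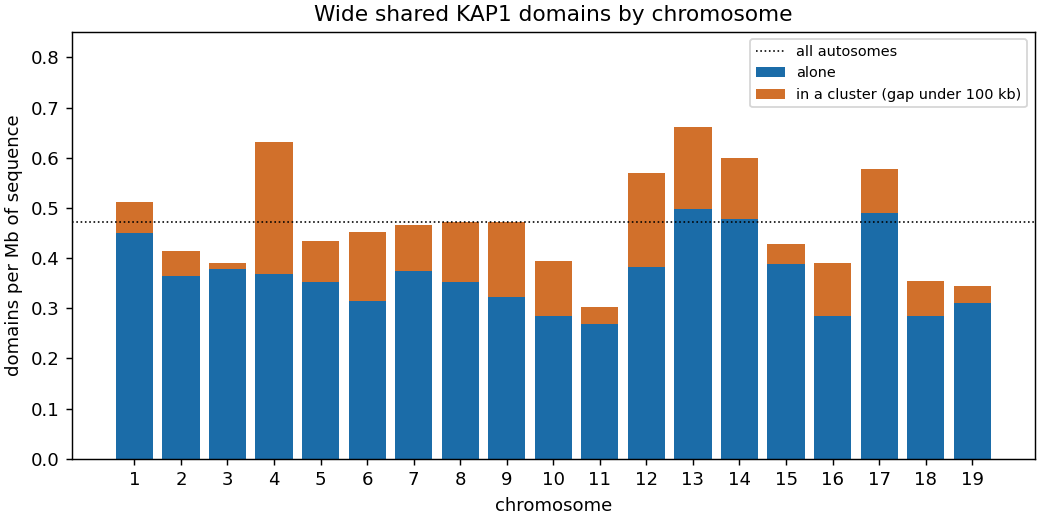
Bars give the number of domains per Mb of sequenced bases on each autosome, divided into domains alone and domains in a cluster with gaps under 100 kb; the dotted line is the value over all autosomes (0.471). Chromosome 13 has the tallest bar (0.662), and chromosome 4 the largest part in clusters (40 of 96 domains).

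Of the domains, 245 (21.7%, 19.3–24.2%) had another domain less than 100 kb away, and these formed 107 clusters. Most clusters were pairs (83), 18 held 3 domains, 5 held 4 and 1 held 5. The largest, chr12:18136501-18312450, had 5 intergenic domains in 176 kb, with a JB1 ZFP57 peak in 2 of them, and its nearest protein-coding starts were those of *Gm4983* and *Gm9590*. Of the 5 clusters of 4, ranked by their summed width, 3 were in the stretch of chromosome 4 just described: chr4:146545051-146647950 at *Gm13139*, *Gm16889*, *Gm17317* and *Gm13146*, with ZFP57 in 2 domains, chr4:145414051-145543200 at *Gm13235*, *2610036A22Rik*, *1700029I01Rik* and *Gm13238*, likewise with ZFP57 in 2, and chr4:146751751-146847750 at *Gm13145* and *Gm8178*, with JB1 ZFP57 in 1 domain that held BJ1 ZFP57 too. In the first and second of these, all domains met a BJ1 peak of at least 3000 bp. The fifth cluster by rank, chr4:60280501-60427500, lay between genes of the major urinary proteins, with *Mup8* and *Mup9* as the nearest starts, and had JB1 ZFP57 in 3 of its 4 domains and a BJ1 peak of at least 3000 bp at 1. The last cluster of 4, chr9:19705201-19772400 near *Olfr77*, had JB1 ZFP57 in 2 domains. Clustered domains could adjoin each other, and at 8 places in all a domain began at the base after the end of another.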

How the data were processed

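Peak lists of ZFP57 and KAP1 ChIP-seq in JB1 and BJ1 were used as deposited. Per the paper's methods and the labels, the authors sequenced 50 bp single-end reads (CASAVA 1.8.2), trimmed them, aligned them to mm9 with Bowtie 0.12.7, allowing 2 mismatches, and ran MACS on each library (*P*-value 1e-05). SAMtools 0.1.18 and bedtools 2.14.3-1 are also named. The deposited columns hold positions, counted from 1 on a grid of 150 bp, and no score, so depth is not known, and the 2 inputs were left out. All peaks lay within the chromosome lengths of NCBIM37 (mm9), whose sequence and GENCODE M1 genes were used.

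Peaks sharing at least 1 bp were counted as overlapping. The width in BJ1 is that of the widest overlapping KAP1 peak. Clusters are runs of domains with gaps under 100 kb. Repeated words are 24-mers, 1 in 64 sampled by a hash, found at least 10 times in the genome. Families were made with BLAST 2.17.0 (megablast, word size 28). Genes with at least 5 C2H2 fingers were found in the translated GENCODE transcripts. No test was possible with 1 library per line and antibody. Shares have exact Clopper-Pearson 95% intervals, and a count of 0 is given with the share that 3 counts would make. The overlap and family steps were tested on simulated data, where all 652 planted wide shared peaks and all 7140 pairs of sequences were placed right. Domains, lists and alternatives were chosen with earlier results of these data known. The domains named are the 20 widest (with 1 more tied at 9000 bp), the 5 with the largest and smallest ratio of widths, the 5 with the most ZFP57 peaks (ties of 4 peaks broken by width), those with ZFP57 of both lines over a listed gene, the 5 largest clusters (ties broken by summed width), 3 on each side of the width threshold, and those over genes of the small lists. Domains over *Vmn2r35* and over genes of at least 5 fingers were added after their values were seen. Scripts ran under Python 3.11.15 (scipy 1.17.1, numpy 2.4.6, numba 0.67.0, networkx 3.6.1, pandas 2.3.3, matplotlib 3.10.9).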

Additional observations from a re-analysis of the deposited data

Results flagged for a closer look

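On the sex chromosomes, which the rule left out, 66 KAP1 peaks of JB1 were at least 3000 bp wide and overlapped a KAP1 peak of BJ1. They lie outside the comparisons above and the input libraries of both lines were not used here. Of these, 62 were on the X and 4 on the Y chromosome, their median width was 3600 bp in JB1 and 3000 bp in BJ1, and 42 held a JB1 ZFP57 peak (63.6%, 50.9–75.1%). The widest measured 104700 bp in JB1 (chrX:31257901-31362600) against 4050 bp in BJ1, whereas the next, chrX:31820701-31889250, measured 68550 and 68700 bp. No difference of the sex chromosomes from the autosomes was tested.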

How the results depend on the processing

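Of 49 values under an alternative, 30 stayed within the interval of the value reported, within 1 window for the width or within 1.5 times for the number, and 19 moved. No test was run, so no call could change. With a minimum width of 2500 bp, there were 2162 domains, the median BJ1 width was 2700 bp, 34.0% met a BJ1 peak of at least 3000 bp, 6.71% held BJ1 ZFP57 and 38.3% were in a cluster. With a minimum of 5000 bp, there were 123 domains, 65.9% met such a BJ1 peak, 60.2% held JB1 ZFP57, 29.3% lay over a gene, 7.32% over a start site and 9.76% in a cluster. Joining JB1 peaks closer than 1000 bp first gave 3193 domains. The sum of the widths of all overlapping BJ1 peaks had a median of 3300 bp. Protein-coding genes alone were under 17.8% of the domains, start sites within 1000 bp of 3.90%, and genes of at least 5 C2H2 fingers under 0.975%. Clusters held 15.3% of the domains with gaps under 50 kb and 37.1% under 250 kb. Exchanging the lines (896 domains) gave 69.3% with JB1 ZFP57, a value computed after the data were seen. Requiring 50% coverage by BJ1 peaks (1116 domains) or adding the sex chromosomes (1194) moved none of the 9 values. The list of zinc-finger genes by RefSeq protein was not run, and no replicate could be left out with 1 library per line and antibody. No paired analysis was possible because each group has a single library and no test was made.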

Other observations

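The 4 wide autosomal KAP1 peaks of JB1 that met no BJ1 KAP1 peak were chr10:7229101-7235550 (6450 bp), chr18:3114901-3120150 (5250 bp), chr2:181651801-181655550 (3750 bp) and chr2:181655701-181658850 (3150 bp). None held a ZFP57 peak of either line or lay over a gene, and the last 2 are near the end of chromosome 2, with *Polr3k* as the nearest start.

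Of the 935 autosomal KAP1 peaks of BJ1 that were at least 3000 bp wide, 896 overlapped a JB1 KAP1 peak, and 69.3% of these held a JB1 ZFP57 peak and 9.49% a BJ1 ZFP57 peak. The first share is below the interval of the domains chosen by their width in JB1 (72.9%, 70.2–75.4%), and the second is within theirs (8.33%, 6.79–10.1%).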
